A study of Mus musculus with 12 samples.

Results

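The genes described here are 10 genes of fibroblast growth factor (FGF) signalling to the kinase ERK: the receptors Fgfr1 and Fgfr2, the ERK phosphatases Dusp4 and Dusp6, the inhibitors Spry1, Spry2, Spry4 and Spred1, and the transcription factors Etv4 and Etv5. They were chosen by symbol from a table of 25861 genes, and all 10 were among the 17025 genes with enough counts to be tested. RNA was sequenced from organoids, that is, clusters of tumour cells grown in 3D, isolated from the mammary tumours of MMTV-Neu mice. In this model the oncogene Neu (Erbb2) is expressed in mammary epithelium from the promoter of a mammary tumour virus. Of the 3 groups, sh1Cldn7 and sh2Cldn7 each carried 1 short hairpin RNA against Cldn7, which encodes the tight junction protein claudin 7, and shControl carried a hairpin without a target and is labelled as wild type. Organoids of every group were infected with lentivirus at a multiplicity of infection of 20, kept under puromycin selection (3 µg/ml) during 3 days, held in collagen I for 5 days and grown with 2.5 nM FGF2, so that no library without added FGF2 was compared. The study asked what Cldn7 does in invasion and metastasis. There were 4 libraries per group, with replicate numbers 1 to 4, and libraries were compared within a replicate number. A p-value here reflects only the spread among these libraries that is left within replicate numbers. Since the labels name no separate animals or cultures for the replicates, that spread may be technical.

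FGFs bind receptor tyrosine kinases, which act through RAS, RAF and MEK to switch on ERK. Active ERK raises the transcription of Etv4, Etv5 and several of its own inhibitors, so the RNA of these genes is widely used as a readout of the pathway. In the mammary gland, FGF signalling through Fgfr2 is known to drive branching of the epithelium, and FGF2 is commonly added to mammary organoids for the same purpose.

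With sh2Cldn7, Fgfr2 rose 1.71-fold and Etv5 fell to 0.711 of the control level, and these were the changes that passed the test among the 10 genes. Both calls rest on comparing libraries within a replicate number. With sh1Cldn7 no gene of the set passed. Dusp6, Spry4 and Etv4 had no call with either hairpin. The libraries of these 3 genes differed mainly by replicate number, and so did those of Fgfr2 and Etv5.

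Cldn7 itself stood at 33.6 ± 7.15 CPM (read counts set to a common library size; SD, n = 4) with sh1Cldn7, 28.4 ± 4.29 CPM with sh2Cldn7 and 142 ± 34.6 CPM in the control. With the replicate number in the model it fell by 2.07 on the log2 scale with sh1Cldn7 (edgeR adjusted p = 2.627e-06) and by 2.3 with sh2Cldn7 (edgeR adjusted p = 9.795e-07). Total counts ranged from 34988358 to 76329473 per library, with all libraries of replicates 3 and 4 at 68581024 or more and all those of replicates 1 and 2 at 44645514 or fewer. The labelled cell type is primary epithelial cells, and the 5 luminal epithelial markers (Epcam, Cdh1, Krt8, Krt18 and Krt19) summed to 2460 to 4500 CPM with sh1Cldn7, 2400 to 4290 CPM with sh2Cldn7 and 2600 to 4690 CPM in the control. The 7 fibroblast markers were present as well, at sums of 244 to 4720 CPM with sh1Cldn7, 497 to 8420 CPM with sh2Cldn7 and 215 to 3870 CPM in the control. The 6 leukocyte markers summed to 31.4 to 146 CPM in replicates 1 and 2 and to 2.22 to 20.3 CPM in replicates 3 and 4, and the 4 endothelial markers to 1.12 to 5.66 CPM in all 12 libraries.

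Set against the length of their exons, the 10 genes spanned a wide range of levels in the control. Dusp6 had the highest mean at 78.6 ± 52.4 CPM per kb of exon (SD, n = 4), followed by Fgfr1 at 67.4 ± 18.2 and Etv5 at 55.3 ± 19.6 CPM per kb. Dusp6 was far above Fgfr1 in control replicate 3 (156 against 69.8 CPM per kb) and below it in control replicate 4 (42.8 against 92.0). Spry2 had 36.6 ± 5.23, Dusp4 24.2 ± 5.58, Spred1 14.2 ± 1.95 and Etv4 10.7 ± 3.35 CPM per kb. At the low end stood Spry1 with 5.61 ± 0.33, Spry4 with 4.82 ± 2.95 and Fgfr2 with 2.01 ± 1.08 CPM per kb. Neighbours in this order overlapped in their 4 control libraries, except that Spry2 lay wholly above Dusp4, Dusp4 wholly above Spred1, and Etv4 wholly above Spry1. The order of the group means was the same with sh1Cldn7 and sh2Cldn7. The organoids thus held far more RNA of Fgfr1 than of Fgfr2 per length in all 3 groups. Of the other receptor genes, Fgfr3 averaged 3.87 ± 1.41 CPM with sh1Cldn7, 3.59 ± 1.37 CPM with sh2Cldn7 and 3.35 ± 1.02 CPM in the control (SD, n = 4 each), and Fgfr4 had at most 0.253 CPM in any library of sh1Cldn7, 0.416 CPM in any of sh2Cldn7 and 0.384 CPM in any control.

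**Figure D1:**
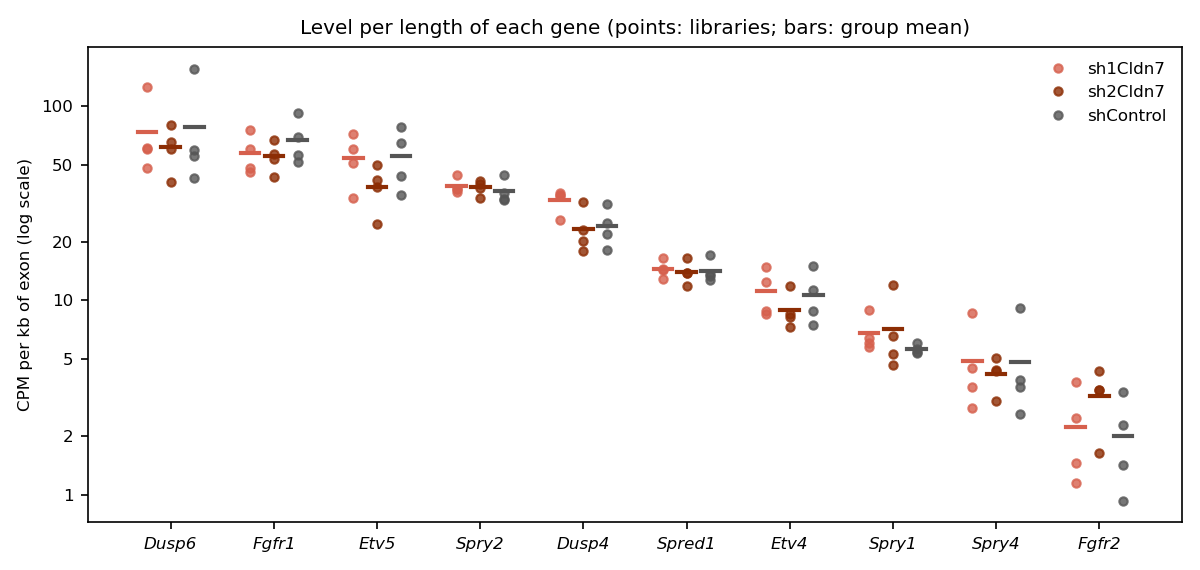
Level of the 10 genes in CPM per kb of exon on a log scale, in falling order of the control mean. Points are the 4 libraries of sh1Cldn7, sh2Cldn7 and shControl and bars are group means. The order is the same in the 3 groups, with Dusp6 at the top and Fgfr2 at the bottom.

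The sequence upstream of a start site is shown for Fgfr2 and Etv5, the genes that passed the test with sh2Cldn7. It is also shown for Dusp6, the gene of highest mean level per length. ETS factors such as ETV4 and ETV5 bind DNA at sites built on GGAAG, and capitals mark each GGAAG or its complement CTTCC in these windows. The sequences come from RefSeq on GRCm38.p6, are written 5′ to 3′ on the strand of the gene, and end at the base before an annotated start site. They lie at chr7:130266809-130267058 on the minus strand for Fgfr2 and at chr10:99262981-99263230 on the plus strand for Dusp6. For 1 of the 2 start sites of Etv5 the window lies at chr16:22438369-22438618 on the minus strand. The Fgfr2 and Etv5 windows fall inside the spans that GENCODE M21 gives these genes, whose 5′ ends lie further upstream than these RefSeq start sites. That end is at 22439719 for Etv5, close to its window, but at 133123350 for Fgfr2, very far from its window. The exon length used for Fgfr2, 10.328 kb, was taken over that whole span.
Fgfr2: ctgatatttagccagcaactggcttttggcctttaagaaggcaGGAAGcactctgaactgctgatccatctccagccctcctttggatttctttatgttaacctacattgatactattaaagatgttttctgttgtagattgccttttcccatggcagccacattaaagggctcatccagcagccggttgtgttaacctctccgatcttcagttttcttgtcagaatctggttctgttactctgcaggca
Dusp6: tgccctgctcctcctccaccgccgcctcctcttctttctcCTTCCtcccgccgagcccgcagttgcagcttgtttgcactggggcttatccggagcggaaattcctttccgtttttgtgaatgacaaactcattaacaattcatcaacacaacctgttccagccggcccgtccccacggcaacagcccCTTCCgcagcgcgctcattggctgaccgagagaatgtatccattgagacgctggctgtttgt
Etv5: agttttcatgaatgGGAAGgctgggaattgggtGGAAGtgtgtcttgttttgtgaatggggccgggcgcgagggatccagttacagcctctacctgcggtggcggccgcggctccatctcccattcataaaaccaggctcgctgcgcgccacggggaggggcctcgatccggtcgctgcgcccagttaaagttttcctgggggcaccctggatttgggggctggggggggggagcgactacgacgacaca
On both strands, GGAAG occurred 1 time in the Fgfr2 window, 2 times in the Dusp6 window and 2 times in the Etv5 window. The longer form CCGGAAG, which contains it, was in none of the 3. Of the usable windows not printed, that of the other Etv5 start site was cut to 101 bases by an exon and held 0 GGAAG. The window of Spry2 held 0 and that of Spred1 held 1. Of 32851 such windows of 250 bases over 27025 mouse genes, 64.1% held GGAAG and 6.91% held CCGGAAG on either strand. A match of these letters is a description of the window and was not tested as a binding site.

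Fgfr2 was the member whose RNA rose. It encodes the receptor that, in its epithelial isoform, answers FGFs made by the stroma, and it lies on chromosome 7 (130162451 to 133123350 in GENCODE M21 on GRCm38, minus strand, protein coding). In replicates 1 to 4 it had 11.9, 39.4, 15.0 and 25.5 CPM with sh1Cldn7, 17.0, 44.9, 35.7 and 35.6 CPM with sh2Cldn7, and 9.59, 35.03, 14.7 and 23.7 CPM in the control. The groups overlapped, because replicate 2 was high and replicate 1 low in every group, but within each replicate number the sh2Cldn7 library was the highest of the 3. Of its exon bases, 3.04% overlap the gene Ctbp2 on the same strand. The excess over the control was largest in replicate 3. On the log2 scale Fgfr2 rose by 0.77 with sh2Cldn7 (SE 0.148, 95% interval 0.44 to 1.1, edgeR adjusted p = 0.0176). With sh1Cldn7 the log2 fold change was 0.15 (SE 0.148, 95% interval -0.18 to 0.48, edgeR adjusted p = 0.734). The sums of the 5 basal epithelial markers in replicates 1 to 4 were 2050, 3290, 1040 and 1240 CPM with sh1Cldn7, 2310, 3290, 2380 and 1780 CPM with sh2Cldn7, and 1540, 3580, 768 and 677 CPM in the control. The sums were above the control of their number in replicates 1, 3 and 4 and below it in replicate 2 with either hairpin. Of these 5 markers 2, Trp63 and Acta2, rose with sh2Cldn7 (log2 fold changes 0.56 and 1.15, edgeR adjusted p = 0.027 and 0.0194), calls lost for Trp63 without any 1 control or sh2Cldn7 replicate 3 or 4 (up to 0.0944) and for Acta2 without control replicate 1, 3 or 4 or sh2Cldn7 replicate 4 (up to 0.0704). Beside them, 1 of the 7 fibroblast markers, Dcn, rose (log2 fold change 1.02, edgeR adjusted p = 0.0113). Of the 5 luminal markers 1, Epcam, fell by 0.34 on the log2 scale (edgeR adjusted p = 0.0151, and 0.0504 without control replicate 3 or sh2Cldn7 replicate 4). Krt19, another luminal marker, went the other way at a log2 fold change of 1.02 without passing (edgeR adjusted p = 0.0692). Cdh1, Krt8 and Krt18 stood at 0.02, -0.04 and -0.09. With only the libraries of sh2Cldn7 and the control in the fit, the calls of Trp63, Acta2 and Epcam were lost (edgeR adjusted p = 0.0962, 0.0502 and 0.124). The part of basal, fibroblast and luminal cells in the changes of Fgfr2 and the other genes was not tested. In bulk RNA, fewer cells of a type and less RNA per cell cannot be told apart. Over both hairpins Fgfr2 had a log2 fold change of 0.46 (SE 0.130, edgeR adjusted p = 0.106), which passed with DESeq2 (adjusted p = 0.0151) and without sh2Cldn7 replicate 2 or 3 (edgeR adjusted p = 0.0457 and 0.0343). The Fgfr2 call with sh2Cldn7 was lost without control replicate 1 or 3 (edgeR adjusted p = 0.0605 and 0.0704), with only the libraries of sh2Cldn7 and the control in the fit (0.0861), and without the replicate number in the model (1).

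Fgfr1 encodes the receptor through which FGF2 commonly acts in mesenchymal and many tumour cells (chromosome 8, 25513654 to 25575718, plus strand). In replicates 1 to 4 it had 452, 476, 595 and 748 CPM with sh1Cldn7, 531, 429, 559 and 665 CPM with sh2Cldn7, and 554, 509.6, 689.5 and 909 CPM in the control. Every hairpin library lay below the control of its number, in 8 of 8 pairs, while the groups as a whole overlapped. The log2 fold change was -0.22 with sh1Cldn7 (SE 0.0741, edgeR adjusted p = 0.238), -0.26 with sh2Cldn7 (SE 0.0741, edgeR adjusted p = 0.0692) and -0.24 over both hairpins (SE 0.0636, 95% interval -0.38 to -0.10, edgeR adjusted p = 0.0867). Fgfr1 was not past the threshold in these comparisons. DESeq2 was an exception, with an adjusted p of 0.0101 with sh2Cldn7 and 0.009475 over both hairpins, as was the fit without sh2Cldn7 replicate 1 (edgeR adjusted p = 0.0301 and 0.0422).

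**Figure D2:**
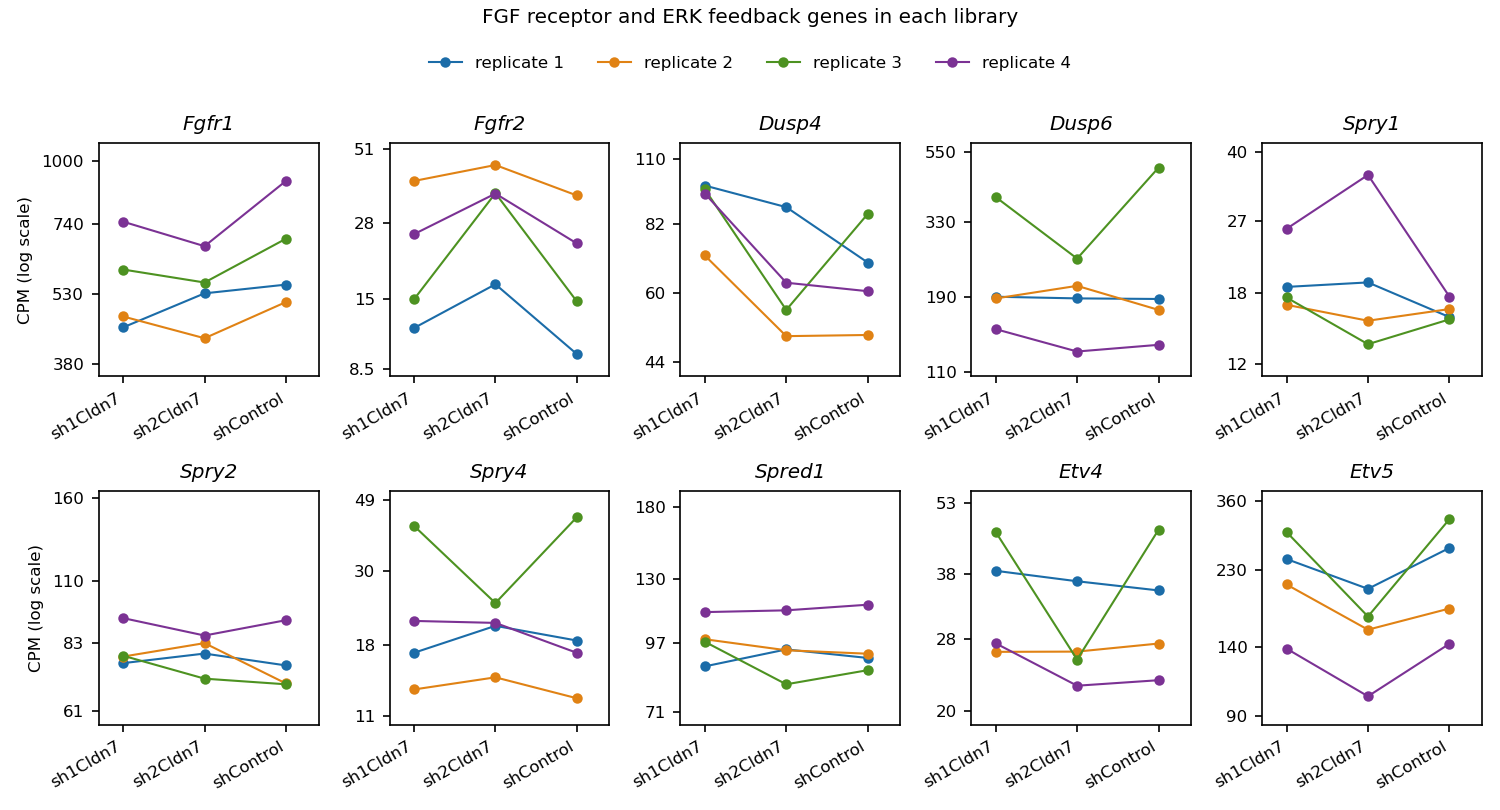
CPM (log scale) of each of the 10 genes in the 12 libraries, 1 panel a gene, with groups sh1Cldn7, sh2Cldn7 and shControl along the axis and lines joining libraries of the same replicate number. Fgfr2 peaks and Etv5 dips at sh2Cldn7 in all 4 numbers, whereas Dusp6 and Spry4 stand apart in replicate 3 of sh1Cldn7 and shControl.

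Over both hairpins 0 of the 10 genes passed the threshold, against 1.79% of all genes tested, and 3 had an unadjusted p under 0.05 (Fgfr1, Fgfr2 and Etv5). With sh1Cldn7 the count was also 0, against 0.728% of all genes, with 2 at an unadjusted p under 0.05 (Fgfr1 and Dusp4). With sh2Cldn7 it was 2 of 10, 1 higher and 1 lower, against 5.76% of all genes. With so few genes such a count is a description. Both hairpin comparisons use the same 4 control libraries. The median log2 fold change of the 10 genes was 0.06 with sh1Cldn7 and -0.05 with sh2Cldn7, against -0.0019 and 0.0044 over all genes tested.

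**Figure D3:**
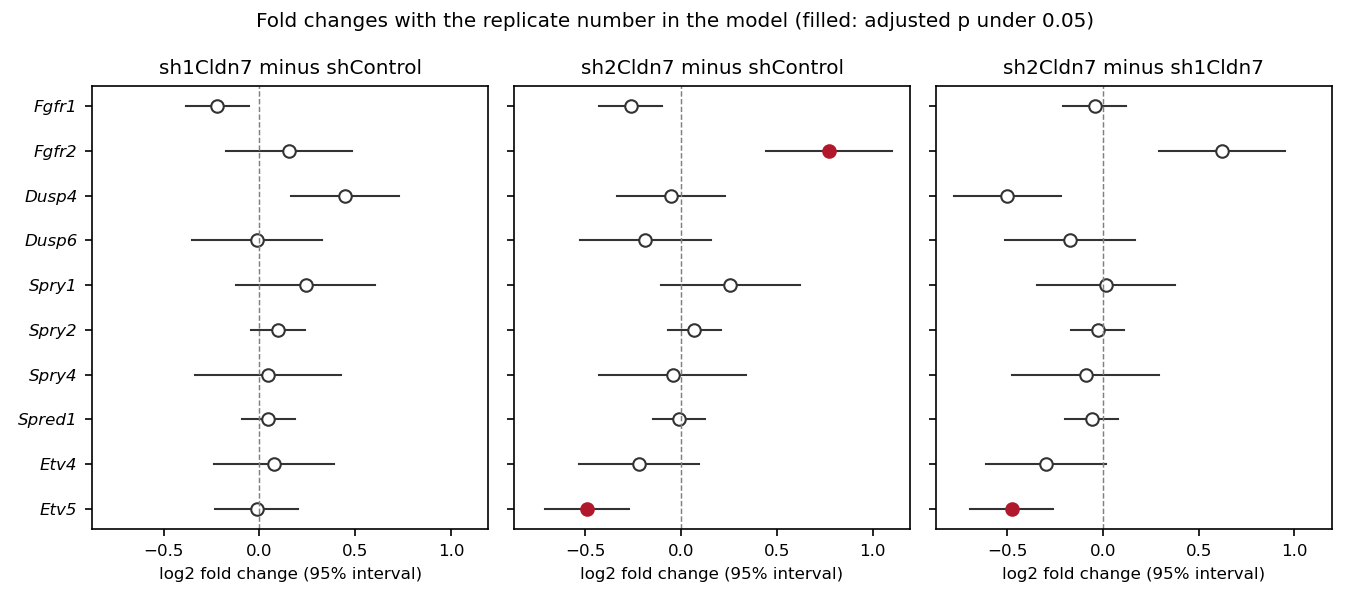
Log2 fold changes of the 10 genes with 95% intervals for sh1Cldn7 minus shControl, sh2Cldn7 minus shControl and sh2Cldn7 minus sh1Cldn7, from the model with the replicate number. Filled points passed an adjusted p of 0.05: Fgfr2 at 0.77 and Etv5 at -0.49 in the middle panel and Etv5 at -0.48 on the right.

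By replicate number, 1 of the 10 genes, Fgfr2, was higher than its control in 8 of 8 pairs, as were 3.72% of all genes, and 1, Fgfr1, was lower in 8 of 8, as were 4.31% of all genes. With sh1Cldn7, 4 genes were higher in 4 of 4 pairs (Fgfr2, Dusp4, Spry1 and Spry2; 11.8% of all genes) and 1 was lower (Fgfr1; 12.6%). With sh2Cldn7, 1 was higher in 4 of 4 pairs (Fgfr2; 12.6% of all genes) and 2 were lower (Fgfr1 and Etv5; 12.8%). The sh2Cldn7 library was the highest of the 3 in all 4 numbers for Fgfr2, a pattern shared by 5.93% of all genes, and the lowest in all 4 for Etv5, a pattern shared by 6.16%.

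The ERK phosphatases did not pass the test with either hairpin. Dusp4, which encodes a nuclear phosphatase induced by ERK activity (chromosome 8, 34807297 to 34819894, plus strand), had 97.6, 71.2, 96.0 and 94.2 CPM in replicates 1 to 4 with sh1Cldn7, 88.6, 49.4, 55.6 and 62.9 CPM with sh2Cldn7, and 68.9, 49.7, 85.9 and 60.5 CPM in the control. All 4 sh1Cldn7 libraries lay above the control of their number, and the sh2Cldn7 libraries lay on both sides. The log2 fold change was 0.45 with sh1Cldn7 (SE 0.126, 95% interval 0.17 to 0.73, edgeR adjusted p = 0.159) and -0.05 with sh2Cldn7 (SE 0.127, edgeR adjusted p = 0.843). The sh1Cldn7 value was past the threshold with DESeq2 (adjusted p = 0.0268), with only the libraries of sh1Cldn7 and the control in the fit (edgeR adjusted p = 0.02454), without sh2Cldn7 replicate 3 (0.0345) and without replicate 3 of all groups (0.0423).

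Dusp6 encodes a cytoplasmic phosphatase that is highly specific for ERK and a standard readout of FGF signalling (chromosome 10, 99263231 to 99267489, plus strand). It had 190.5, 188, 395 and 150.3 CPM in replicates 1 to 4 with sh1Cldn7, 188, 206, 252 and 128 CPM with sh2Cldn7, and 187, 173, 489.9 and 134 CPM in the control. Replicate 3 was the highest library in every group and replicate 4 the lowest. The log2 fold change was -0.01 with sh1Cldn7 (95% interval -0.35 to 0.32, edgeR adjusted p = 0.984) and -0.19 with sh2Cldn7 (95% interval -0.53 to 0.15, edgeR adjusted p = 0.519).

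The Sprouty and Spred genes encode inhibitors that act between the receptor and RAF, and none of the 4 passed the test. Spry2 had 75.8 to 92.9 CPM with sh1Cldn7, 70.7 to 85.9 CPM with sh2Cldn7 and 68.9 to 92.1 CPM in the control, and Spred1 had 87.5 to 112 CPM with sh1Cldn7, 80.6 to 113 CPM with sh2Cldn7 and 86.0 to 116 CPM in the control. The 95% intervals of their log2 fold changes with sh1Cldn7 ran from -0.04 to 0.24 for Spry2 and from -0.09 to 0.18 for Spred1. With sh2Cldn7 the intervals ran from -0.07 to 0.21 for Spry2 and from -0.15 to 0.13 for Spred1. Spry4 (chromosome 18, 38586247 to 38601415, minus strand) had 17.0, 13.2, 41.0 and 21.2 CPM in replicates 1 to 4 with sh1Cldn7, 20.5, 14.4, 24.0 and 21.0 CPM with sh2Cldn7, and 18.5, 12.4, 43.6 and 17.0 CPM in the control. Replicate 3 stood above the others in every group, less so with sh2Cldn7, and the log2 fold changes were 0.04 with sh1Cldn7 and -0.05 with sh2Cldn7 (edgeR adjusted p = 0.954 and 0.911).

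Spry1 (chromosome 3, 37639947 to 37644598, plus strand) had 18.6, 16.8, 17.5 and 25.9 CPM in replicates 1 to 4 with sh1Cldn7, 19.1, 15.4, 13.5 and 35.1 CPM with sh2Cldn7, and 15.7, 16.4, 15.5 and 17.6 CPM in the control. Both hairpin libraries of replicate 4 stood above the rest, and these held more fibroblast marker RNA than the control of that number, at 4720 CPM with sh1Cldn7 and 8420 CPM with sh2Cldn7 against 3870 CPM in the control, whose part in the difference was not tested. The log2 fold change was 0.24 with sh1Cldn7 (95% interval -0.12 to 0.61, edgeR adjusted p = 0.594) and 0.26 with sh2Cldn7 (95% interval -0.11 to 0.62, edgeR adjusted p = 0.394). An unnamed gene on the opposite strand overlaps 24.4% of the Spry1 exon bases, and without a stated strand setting the reads of the pair cannot be told apart. That gene has no entry under its symbol in the deposited counts.

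Etv5 was the member whose RNA fell. It encodes an ETS transcription factor of the PEA3 group, induced by FGF signalling through ERK (chromosome 16, 22381309 to 22439719, minus strand). In replicates 1 to 4 it had 247, 209.8, 294 and 139 CPM with sh1Cldn7, 204, 157, 171 and 102 CPM with sh2Cldn7, and 266, 179.7, 319.6 and 143 CPM in the control. The sh2Cldn7 library was the lowest of the 3 in each number, while the groups overlapped across numbers. On the log2 scale Etv5 fell by 0.49 with sh2Cldn7 (SE 0.098, 95% interval -0.71 to -0.27, edgeR adjusted p = 0.0206). With sh1Cldn7 its log2 fold change was -0.01 (SE 0.0975, 95% interval -0.23 to 0.20, edgeR adjusted p = 0.973). The sh2Cldn7 call was lost without control replicate 1, 3 or 4 or sh2Cldn7 replicate 4 (edgeR adjusted p = 0.0631, 0.0626, 0.0545 and 0.0599), with only the libraries of sh2Cldn7 and the control in the fit (0.122), and without the replicate number in the model (1). Among 50-base stretches of Etv5 exons, 24.5% also occur in another annotated gene without a proper name, so that part of its reads may have been placed there or dropped. The deposited counts hold no entry under the symbol of that gene.

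Etv4, the gene of a close relative in the PEA3 group (chromosome 11, 101769742 to 101785371, minus strand), had 38.6, 26.4, 46.4 and 27.5 CPM in replicates 1 to 4 with sh1Cldn7, 36.8, 26.5, 25.5 and 22.5 CPM with sh2Cldn7, and 35.2, 27.5, 46.9 and 23.1 CPM in the control. Only the replicate 3 library of sh2Cldn7 stood well apart from the control of its number. The log2 fold change was 0.08 with sh1Cldn7 (95% interval -0.24 to 0.39, edgeR adjusted p = 0.879) and -0.22 with sh2Cldn7 (95% interval -0.53 to 0.09, edgeR adjusted p = 0.396).

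The difference between sh2Cldn7 and the control was largest in replicate 3 for Fgfr2 and several ERK target genes, though not for all such genes. In that number the control and sh1Cldn7 libraries were high in Dusp6 (489.9 and 395 CPM) and Spry4 (43.6 and 41.0 CPM). The sh2Cldn7 library had 252 and 24.0 CPM, and its Dusp4, Etv4 and Etv5 lay within the range of the other sh2Cldn7 libraries. Its log2 difference from the control of replicate 3 was -0.96 for Dusp6, -0.86 for Spry4, -0.88 for Etv4, -0.90 for Etv5, -0.63 for Dusp4 and 1.27 for Fgfr2. In the other 3 numbers the sh2Cldn7 differences lay between -0.07 and 0.25 for Dusp6, between 0.15 and 0.30 for Spry4, and between -0.06 and 0.06 for Etv4. They lay between -0.49 and -0.20 for Etv5, between -0.01 and 0.36 for Dusp4, and between 0.36 and 0.82 for Fgfr2. Other ERK target genes went either way in the replicate 3 library of sh2Cldn7. Egr1 stood at 0.61, Dusp5 at 0.50, Fos at 0.79 and Spry2 at 0.04, against -1.05 for Etv1. The basal marker sum of that library was 2380 CPM, against 768 CPM in its control, and the part of this difference was not tested. With replicate 3 left out of all groups, an alternative chosen after the data were seen, Etv5 with sh2Cldn7 stood at a log2 fold change of -0.36 (edgeR adjusted p = 0.04556) and Fgfr2 at 0.58 (edgeR adjusted p = 0.0208), both past the threshold. With replicate 1 or 4 left out in the same way neither passed (edgeR adjusted p = 0.0842 and 0.0935 for Etv5, and 0.102 and 0.0788 for Fgfr2).

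**Figure D4:**
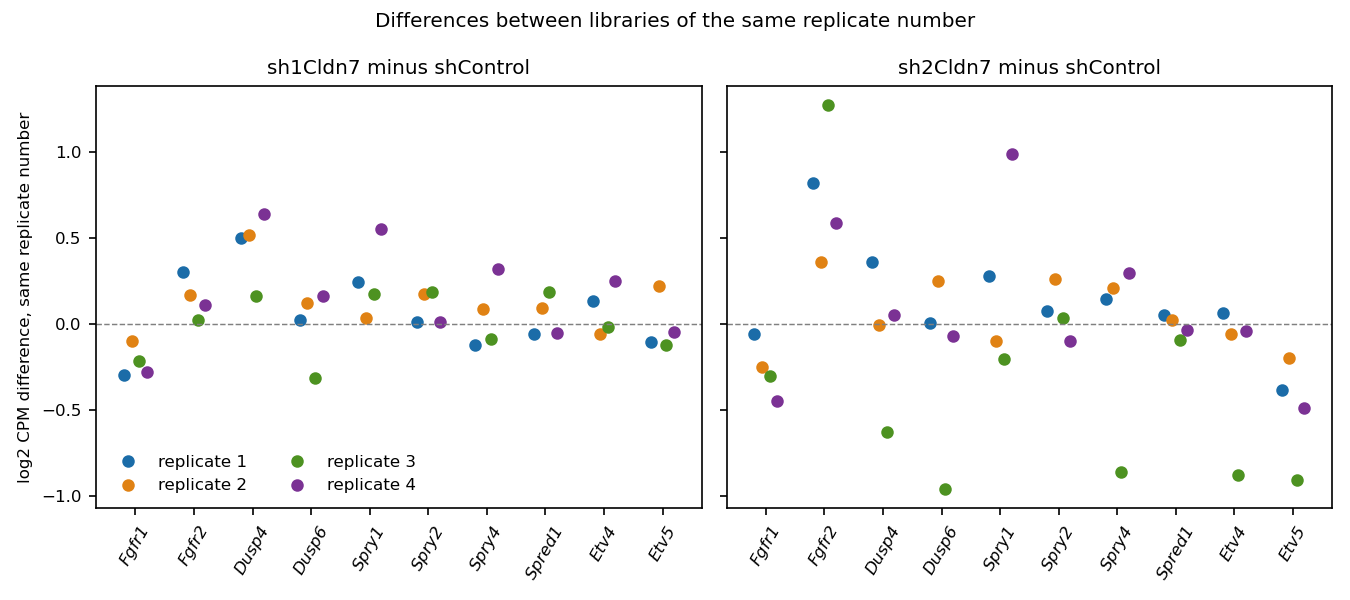
Log2 CPM difference between each hairpin library and the control of the same replicate number, for sh1Cldn7 on the left and sh2Cldn7 on the right, 1 point a number. With sh2Cldn7 the replicate 3 point lies lowest for Dusp4, Dusp6, Spry4, Etv4 and Etv5 (-0.63 to -0.96) and highest for Fgfr2 (1.27).

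Set directly against each other, the hairpins differed in Etv5. The level with sh2Cldn7 was lower than with sh1Cldn7 by a log2 fold change of -0.48 (SE 0.0979, 95% interval -0.69 to -0.26, edgeR adjusted p = 0.0292). This was 1 of 10 genes, against 3.44% of all genes tested, and 3 had an unadjusted p under 0.05. Fgfr2 stood at 0.62 (SE 0.148, edgeR adjusted p = 0.0501) and Dusp4 at -0.50 (SE 0.126, edgeR adjusted p = 0.0625) for sh2Cldn7 minus sh1Cldn7, both just outside the threshold, and the median of the 10 genes was -0.07 against 0.0082 over all genes. Both passed with no filter on low counts (edgeR adjusted p = 0.0296 and 0.0302) and with DESeq2 (adjusted p = 0.00269 and 0.00432). Fgfr2 also passed without sh2Cldn7 replicate 2 or 3 (edgeR adjusted p = 0.026 and 0.0412), and Dusp4 without control replicate 3 or sh2Cldn7 replicate 1 (edgeR adjusted p = 0.0186 and 0.033) and with only these 2 groups in the fit (0.0452). The Etv5 difference lost its call without sh1Cldn7 replicate 1, 2, 3 or 4 (edgeR adjusted p = 0.0641, 0.104, 0.117 and 0.0912), without sh2Cldn7 replicate 1 or 4 (0.0554 and 0.0747), and without the replicate number in the model (1). Cldn7 itself differed by -0.23 (SE 0.0808, edgeR adjusted p = 0.149).

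Replicate number set more of the variation than the hairpin for 9 of the 10 genes. It took 85.5% of the sum of squares of log2 CPM for Dusp6, 84.2% for Spry4, 82.1% for Spred1, 79.3% for Fgfr1, 73.1% for Fgfr2, 71.6% for Spry2, 70.0% for Etv5, 62.9% for Etv4 and 59.6% for Spry1, against a median of 74.6% over all genes tested. Dusp4 was the exception, with 38.9% by replicate number and 41.9% by group. The group took 23.9% for Etv5, 20.9% for Fgfr2 and 14.5% for Fgfr1, and 0.559% for Spry4.

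After the mean of each replicate number was taken off, the genes with the most similar log2 CPM over the 12 libraries were found among 13118 genes of at least 2 CPM. For Fgfr2 these were Grik5, Mn1 and Ptprs (Pearson r = 0.986, 0.981 and 0.976), and for Fgfr1 they were Sorl1, Ip6k1 and Dpysl5 (0.96, 0.942 and 0.929). For Dusp6 they were Insig1, Erg28 and Dpy30 (0.988, 0.975 and 0.975), and for Etv4 they were Tm7sf2, Dohh and Dhcr7 (0.976, 0.968 and 0.966). These values describe libraries that share replicate numbers and groups, and were picked as the highest of many.

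The wider pathway was covered by 99 further genes in 3 lists, of which 87 were tested. Over both hairpins 4 of the 87 passed the threshold (4.6%, against 1.79% of all genes tested), 2 higher and 2 lower. With sh1Cldn7 1 passed (1.15%, against 0.728% of all genes), and with sh2Cldn7 8 passed (9.2%, against 5.76% of all genes), 6 higher and 2 lower. For sh2Cldn7 minus sh1Cldn7 4 passed (4.6%, against 3.44% of all genes). Their median log2 fold change was 0.02 with sh1Cldn7 and 0.08 with sh2Cldn7, against -0.0019 and 0.0044 over all genes. Whether these shares differ from those of all genes was not tested. None of the 87 passed in any comparison when the model left the replicate number out.

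Among 38 ligands, receptors and co-receptors, 27 were tested, and with sh2Cldn7 2 rose and 1 fell, beside 5.76% of all genes called in that comparison. Fgfrl1, which encodes a receptor that binds FGFs but has no kinase domain, had 204, 155, 234 and 152 CPM in replicates 1 to 4 with sh1Cldn7, 176, 118, 166 and 100 CPM with sh2Cldn7, and 238, 169.7, 245 and 183 CPM in the control. Every hairpin library lay below the control of its number. Fgfrl1 fell by 0.60 on the log2 scale with sh2Cldn7 (SE 0.0719, edgeR adjusted p = 0.00265), a call kept without any 1 of the 12 libraries, and by 0.38 over both hairpins (edgeR adjusted p = 0.0177), a call lost without control replicate 1 or 4 (0.0661 and 0.0759). With sh1Cldn7 its log2 fold change was -0.17 (edgeR adjusted p = 0.35), and for sh2Cldn7 minus sh1Cldn7 it was -0.42 (edgeR adjusted p = 0.0133), a call lost without sh1Cldn7 replicate 2, 3 or 4 (0.0542, 0.0694 and 0.0583). Fgf8, a ligand, rose with sh2Cldn7 to 2.50 ± 1.5 CPM against 0.88 ± 0.827 CPM in the control (SD, n = 4 each; log2 fold change 1.75, edgeR adjusted p = 0.0182), a low level whose call was lost without control replicate 1 or 3 (0.0552 and 0.0605). For sh2Cldn7 minus sh1Cldn7 the Fgf8 log2 fold change was 1.46 (edgeR adjusted p = 0.0426), a call lost without any 1 of 11 libraries, all but control replicate 3. Hspg2, the gene of the heparan sulphate proteoglycan perlecan, rose by a log2 fold change of 0.61 with sh2Cldn7 (edgeR adjusted p = 0.0288), lost without control replicate 1, 3 or 4 or sh2Cldn7 replicate 3 or 4 (0.0598, 0.1, 0.0851, 0.0623 and 0.0871). Sdc3 and Fgf10 followed Fgfrl1 in smallest p over both hairpins, at log2 fold changes of 0.23 and 1.13 (edgeR adjusted p = 0.108 and 0.122).

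All 30 adaptors and kinases of the cascade were tested, and 2 rose and 1 fell with sh2Cldn7, beside the same 5.76% of all genes. Rras, the gene of a RAS-related GTPase, had 122, 76.8, 107 and 86.8 CPM in replicates 1 to 4 with sh1Cldn7, 103, 71.9, 95.3 and 75.6 CPM with sh2Cldn7, and 129, 91.8, 124 and 94.7 CPM in the control. All 8 hairpin libraries lay below the control of their number. It fell by 0.35 on the log2 scale with sh2Cldn7 (SE 0.0466, edgeR adjusted p = 0.00394). That call was kept without any 1 library, but lost with only the libraries of sh2Cldn7 and the control in the fit (0.0595). In that fit every other sh2Cldn7 call of the 3 lists was lost as well (edgeR adjusted p = 0.0679 to 0.171), except that of Fgfrl1. Between the hairpins, a fit of only their libraries lost the calls of Fgf8 and Dusp7 (edgeR adjusted p = 0.0619 and 0.0586). Over both hairpins Rras fell by 0.26 (edgeR adjusted p = 0.016), a call lost without control replicate 1, 3 or 4 (0.061, 0.0642 and 0.0605). Gab1, a docking protein gene, and Sos1, the gene of a RAS exchange factor, both rose with sh2Cldn7 by a log2 fold change of 0.32 (edgeR adjusted p = 0.0388 and 0.023). The Sos1 call was lost without control replicate 1, 3 or 4 or sh2Cldn7 replicate 1 or 4 (edgeR adjusted p = 0.0536, 0.0743, 0.0628, 0.0711 and 0.0767). The Gab1 call was lost without any 1 of 9 libraries, namely control replicates 1 and 3, every sh1Cldn7 replicate and sh2Cldn7 replicates 1, 3 and 4, with an edgeR adjusted p of up to 0.129. Between the hairpins, Braf was higher with sh2Cldn7 than with sh1Cldn7 (log2 fold change 0.32, edgeR adjusted p = 0.0289), a call lost without any 1 of 7 libraries, which were every sh1Cldn7 replicate and sh2Cldn7 replicates 1, 3 and 4 (up to 0.117).

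Of 31 further feedback inhibitors and ERK output genes, 30 were tested, of which 1 rose with sh1Cldn7 (0.728% of all genes were called), 2 rose with sh2Cldn7 (5.76%) and 2 rose over both hairpins (1.79%). Dusp16, the gene of a phosphatase of the stress kinases JNK and p38, had 68.3, 64.2, 53.9 and 54.7 CPM in replicates 1 to 4 with sh1Cldn7, 58.9, 57.9, 50.2 and 47.7 CPM with sh2Cldn7, and 49.3, 53.9, 40.1 and 43.4 CPM in the control. All 8 hairpin libraries lay above the control of their number, and Dusp16 rose by a log2 fold change of 0.37 with sh1Cldn7 (SE 0.0544, edgeR adjusted p = 0.0198) and 0.29 over both hairpins (edgeR adjusted p = 0.02). The sh1Cldn7 call was lost without control replicate 1 or 4 or any sh1Cldn7 replicate (edgeR adjusted p of up to 0.11), and the call over both hairpins without control replicate 1, 3 or 4 or sh1Cldn7 replicate 1, 3 or 4 (up to 0.103). Dusp5, the gene of a nuclear ERK phosphatase, rose by 0.58 with sh2Cldn7 (edgeR adjusted p = 0.0243) and by 0.50 over both hairpins (edgeR adjusted p = 0.0479). Its sh2Cldn7 call was lost without control replicate 1 or 3 or sh2Cldn7 replicate 1 or 4 (0.0637, 0.0734, 0.0564 and 0.0778), and the other without any 1 of 10 libraries, all but control replicate 2 and sh2Cldn7 replicate 3 (up to 0.139). Egr1, an immediate early gene induced by ERK, stood at 195 ± 36.4 CPM with sh1Cldn7, 246 ± 54.8 CPM with sh2Cldn7 and 171 ± 53.3 CPM in the control (SD, n = 4 each). It rose by 0.55 with sh2Cldn7 (edgeR adjusted p = 0.0167), a call lost without control replicate 3 or sh2Cldn7 replicate 1 or 4 (0.0608, 0.0552 and 0.0514). Dusp7, another cytoplasmic ERK phosphatase gene, was lower with sh2Cldn7 than with sh1Cldn7 (log2 fold change -0.33, edgeR adjusted p = 0.0236), lost without sh1Cldn7 replicate 2, 3 or 4 or sh2Cldn7 replicate 3 or 4 (up to 0.108). With sh2Cldn7, Etv5 thus fell in the same libraries in which Egr1 and Dusp5 rose.

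**Figure D5:**
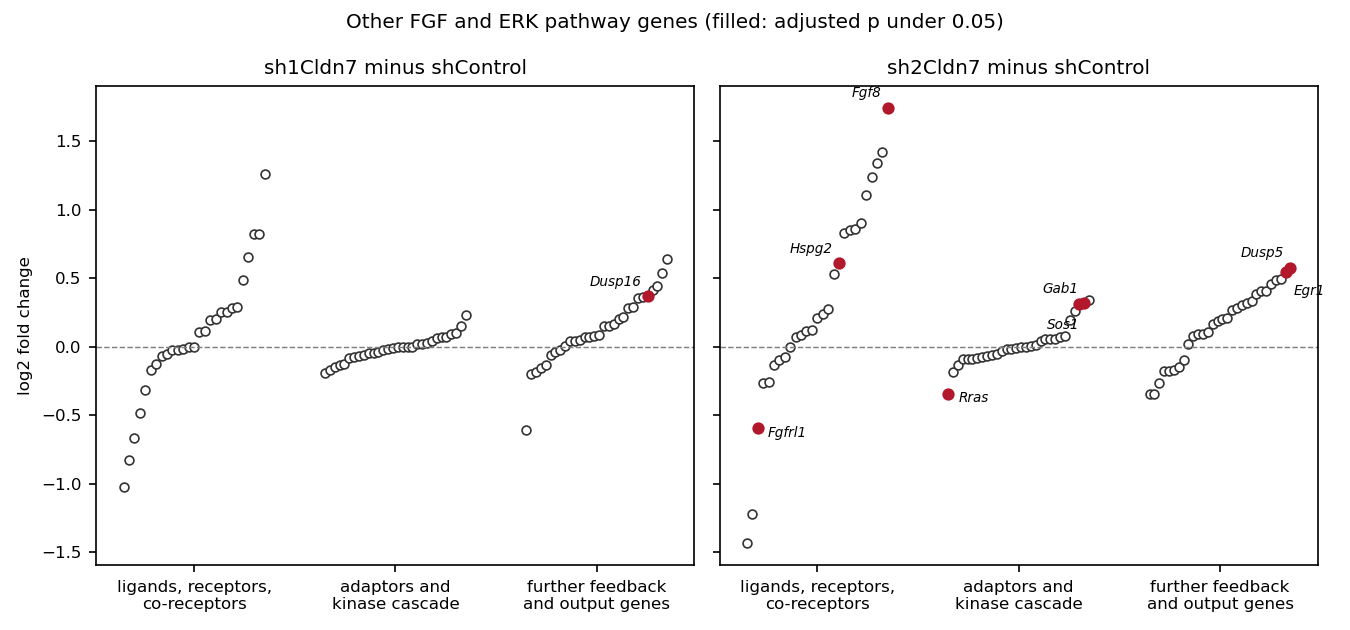
Log2 fold changes of the 87 further pathway genes tested, sorted within each of the 3 lists, for sh1Cldn7 on the left and sh2Cldn7 on the right. Filled, named points passed an adjusted p of 0.05: Dusp16 with sh1Cldn7, and with sh2Cldn7 the lower Fgfrl1 and Rras and the higher Fgf8, Hspg2, Gab1, Sos1, Dusp5 and Egr1.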

How the data were processed

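RNA was sequenced from 12 organoid libraries, prepared from oligo-dT selected RNA per the labels. The authors deposited raw read counts per gene, not normalized, identified by NCBI Gene number and symbol. FastQC 0.74, Trimmomatic 0.39, DESeq2 1.34.0 and the build mm10 stand in the submitters' processing notes without a role. For the aligner, the annotation and the strand setting, the tool or value is not given in the sources used here. Coordinates, exon lengths and overlaps were taken from GENCODE M21 on GRCm38, and promoter windows from RefSeq on GRCm38.p6, where 5 of the 10 genes had a usable window.

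A filter on low counts (filterByExpr in edgeR, by group) left out 8836 genes. After TMM scaling, genes were tested with edgeR 4.0.16 (glmQLFit and glmQLFTest, R 4.3.3) over all 12 libraries, with group and replicate number in the model, Benjamini-Hochberg adjustment over 17025 genes and a threshold of 0.05. CPM uses the scaled library sizes, and log2 CPM a prior count of 2. Paired differences are of log2 CPM. Library totals of 34988358 or more leave counting error small beside the spread between replicates. None of the 18 library pairs within a group agreed within sampling noise.

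The replicate numbers pair the libraries: deviations from the group means correlated at 0.855 to 0.916 for libraries of the same number and at -0.807 to 0.727 for other numbers. This pairing rests on the titles and on these correlations, not on a stated animal or day. The biological coefficient of variation was 0.141 with the replicate number and 0.648 without it.

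The genes, the pathway lists and the alternatives were chosen with earlier results of these data known. The text names all 10 genes, Cldn7, each pathway gene that passed against the control, the 3 of smallest p in each list for both hairpins, and the 3 most similar genes of Fgfr1, Fgfr2, Dusp6 and Etv4. Braf, Dusp7, Fos, Etv1, Fgfr3, Fgfr4, Trp63, Acta2, Dcn, Epcam, Krt19, Cdh1, Krt8 and Krt18 were named singly after their values were seen. Alternatives were another scaling (RLE), no filter, DESeq2 1.42.0, no replicate number, only the groups compared, replicates 1 and 2 or 3 and 4 alone, and each library left out. The tests were tried on simulated counts first.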

Additional observations from a re-analysis of the deposited data

Results flagged for a closer look

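Of 50 groups of 4 values examined, 6 held a library far from the other 3, where chance flags about 1 in 20 independent groups. These groups were not independent, since the differences reuse the same values and share control libraries. Whether 6 exceeds chance was not tested. Dusp6 was far higher in replicate 3 than in the other replicates both with sh1Cldn7 (395.1 CPM) and in the control (489.9 CPM). Dusp4 in sh1Cldn7 replicate 2 (71.15 CPM) lay below the other sh1Cldn7 libraries, and Spry2 in sh1Cldn7 replicate 4 (92.94 CPM) lay above them. The sh2Cldn7 minus control difference of replicate 3 lay far below the other 3 for Etv4 (-0.8774 on the log2 scale) and for Spry4 (-0.857). Etv5 differed between the hairpins, with a log2 fold change of -0.4766 for sh2Cldn7 minus sh1Cldn7 past the threshold in the test of the difference itself (edgeR adjusted p = 0.0292).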

How the results depend on the processing

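With another scaling (RLE) the counts of calls among the 10 genes and among the pathway genes equalled those of the model reported. Over all genes they were 311 against 304 for both hairpins, 118 against 124 with sh1Cldn7, 996 against 981 with sh2Cldn7 and 581 against 585 for sh2Cldn7 minus sh1Cldn7. Without the replicate block, 0 of the 10 genes and 0 of the 87 pathway genes passed in any comparison, and the block changed no direction among the 10 genes. Counts are given below for both hairpins, sh1Cldn7, sh2Cldn7 and sh2Cldn7 minus sh1Cldn7 in that order, and were 0, 0, 2 and 1 of the 10 genes and 4, 1, 8 and 4 pathway genes in the model reported. DESeq2 called 2, 1, 3 and 3 of the 10 genes and 13, 5, 17 and 12 pathway genes. With no filter on low counts they were 0, 0, 2 and 3, and 5, 1, 10 and 6. With only the groups compared in the fit, the last 3 comparisons had 1, 0 and 2 of the 10 genes and 4, 1 and 5 pathway genes. Replicates 1 and 2 alone gave 0 in all 4 comparisons for both sets, and replicates 3 and 4 alone gave 0 of the 10 genes and 0, 0, 2 and 1 pathway genes. Leaving out a library, or a replicate number of all groups (chosen after seeing the data), gave 0 to 1, 0 to 1, 0 to 3 and 0 to 2 of the 10 genes, and 0 to 7, 0 to 2, 2 to 11 and 0 to 5 pathway genes. Fewer samples or genes tested are part of these settings; no other cause was tested.

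No value past the threshold changed sign under any setting. Small log2 fold changes that did, none past the threshold, were as follows. Over both hairpins, Spry4 was 0.01219 with no filter and 0.001975 with DESeq2, and with replicates 1 and 2 alone Dusp6 was 0.09997, Spry4 0.07844 and Etv4 0.02121. With sh1Cldn7, the fit of 2 groups gave 0.01374 for Dusp6 and 0.003568 for Etv5, and replicates 1 and 2 alone gave 0.07364 for Dusp6, -0.01567 for Spry4 and 0.06217 for Etv5. With sh2Cldn7, Spred1 was 0.0007143 with no filter, Spry2 was -0.01286 with replicates 3 and 4 alone, and with replicates 1 and 2 alone Dusp4 was 0.1784, Dusp6 0.1263, Spry4 0.1725 and Spred1 0.03499. For sh2Cldn7 minus sh1Cldn7, Spry1 was -0.009916 in the fit of 2 groups, and with replicates 1 and 2 alone Fgfr1 was 0.03494, Dusp6 0.05267, Spry1 -0.05175, Spry2 0.06867, Spry4 0.1882 and Spred1 0.01136.

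With a library or a replicate number left out, log2 fold changes over both hairpins ranged between -0.1953 and 0.08915 for Dusp6, -0.1041 and 0.1673 for Spry4, -0.01457 and 0.04676 for Spred1, and -0.131 and 0.05718 for Etv4. With sh1Cldn7 the ranges were -0.1055 to 0.1879 for Dusp6, -0.05844 to 0.2264 for Spry4, -0.0163 to 0.09408 for Spred1, -0.001481 to 0.2155 for Etv4 and -0.09909 to 0.08122 for Etv5. With sh2Cldn7 they were -0.2015 to 0.1416 for Dusp4, -0.339 to 0.06609 for Dusp6, -0.0002602 to 0.4105 for Spry1, -0.159 to 0.219 for Spry4 and -0.05105 to 0.03721 for Spred1. For sh2Cldn7 minus sh1Cldn7 they were -0.1419 to 0.009476 for Fgfr1, -0.306 to 0.01318 for Dusp6, -0.209 to 0.1524 for Spry1, -0.08059 to 0.01472 for Spry2, -0.2101 to 0.1418 for Spry4 and -0.1192 to 0.01269 for Spred1.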
